A study of Homo sapiens with 6 samples.

Results

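The nuclear genes for subunits of the mitochondrial respiratory chain and ATP synthase were examined in SW839 cells after knockdown of RNF25, a gene for an E3 ubiquitin ligase. The genes were taken by symbol from the families NDUFA, NDUFB, NDUFC, NDUFS and NDUFV (complex I), SDHA to SDHD (complex II), UQCR (complex III), COX4 to COX8 (complex IV) and ATP5 (complex V), which gave 110 of the 30267 genes listed, 37, 4, 13, 23 and 33 by complex. Of these, 83 are annotated as protein coding, 24 as processed pseudogenes, and 3 symbols had no match in the annotation. Of the 110 genes, 83 had a normalized count of 10 or more in 3 or more libraries, of which 81 are protein coding. None of the other 27 exceeded a normalized count of 19.1 in any library, and they were not tested.

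SW839 is an established renal cell carcinoma line. The series held 6 bulk RNA-seq libraries, 3 from cells carrying an RNF25 hairpin of a single name (shRNF25) and 3 from cells carrying the pLKO vector (shControl), a lentiviral backbone whose carriers were selected with puromycin. By the described method both groups went through infection and selection, and the hairpin is the intended difference. A second hairpin was not analysed here. The treatment text of all 6 libraries, controls included, speaks of the shRNF25 plasmid, so the groups rest on titles, genotype labels and library names. The names of the shRNF25 libraries form a numbered series, while those of the shControl libraries follow no common pattern. Whether control and knockdown libraries were grown, prepared or sequenced side by side is not given in the sources used here. The part of such a difference in the results was not tested. The libraries are described as biological triplicates, with no statement on whether they came from separate cultures, and p-values measure the spread between these libraries.

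Complex I oxidizes NADH, complex II oxidizes succinate as part of the tricarboxylic acid cycle, complex III passes electrons to cytochrome c, complex IV reduces oxygen, and complex V makes ATP from the proton gradient. Most subunits are encoded in the nucleus and imported, while a small set, including parts of the catalytic core, is encoded by mitochondrial DNA. Several complex IV subunits exist as a form found in most tissues and a form restricted to muscle, testis or other tissues, and clear cell renal carcinoma is known for active hypoxia-inducible factors and reduced oxidative metabolism.

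The counted reads numbered between 18647460 and 19943154 per library. RNF25 itself had normalized counts (reads divided by a library size factor) of 694, 534 and 536 in shControl and 214, 246 and 265 in shRNF25. The knockdown libraries held 41.1% of the control mean, with no overlap (log2 fold change -1.27, standard error 0.15, adjusted p by limma = 0.000585). Of the epithelial markers, KRT8 and KRT18 were abundant in both groups, with means of 28459 and 36519 for KRT8, and PAX8 had means of 127 and 94.0. PAX2 and CDH16 had no entry in the table used, CA9 was near 23.6 and 4.94, and VIM rose from 355 to 832. Of 10 markers of leukocytes, endothelium and mesenchyme, 5 were tested and 2 were lower (CDH5, 125 to 5.89, and COL1A1, 1177 to 914). Over all tested genes 10.8% were lower. The knockdown mean of CDH5 lay below the filter of 10, so CDH5 passed the filter through its control counts. Without shControl replicate 1, 4 markers were tested and 1 was lower. The summed level of the markers was 1601 to 1964 in shControl and 1301 to 1587 in shRNF25. PECAM1 had means of 400.3 and 452, PTPRC of 11.4 and 9.52 and CD3E of 0.360 and 0.929. The part of these markers in the results was not tested, and in bulk RNA a smaller number of cells of a type and less RNA per cell cannot be told apart.

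A control library stood apart in respiratory chain RNA. Genes of the mitochondrial genome took 12.1% of reads in shControl replicate 1, and 3.68% and 4.16% in shControl replicates 2 and 3. In shRNF25 the shares were 3.58%, 4.44% and 3.67%. All 13 mitochondrially encoded subunit genes were highest in shControl replicate 1, at 2.67 to 6.48 times the mean of the other 5 libraries. The nuclear subunit genes lay the other way, taking 0.522%, 0.786% and 0.661% of reads in the 3 shControl libraries and 0.754%, 0.738% and 0.772% in shRNF25. On the nuclear measure the control libraries thus lay on both sides of all 3 knockdown libraries, and on the mitochondrial measure the groups overlapped. In shControl replicate 1, 55 of the 83 tested subunit genes lay below both other control libraries (66.3%, against 39.5% of all tested genes), and in shControl replicate 2, 62 of 83 lay above both others (74.7%, against 27.8%). The spread was wider in the controls, with a median standard deviation of 0.294 on the log2 scale in shControl and 0.0905 in shRNF25. It was larger in shControl for 75 of the 83 genes. The corresponding medians over all 16554 tested genes were 0.260 and 0.0959. Between shControl replicates 2 and 3 alone, the median standard deviation was 0.178 for the 83 genes and 0.138 for all tested genes. Results are given with all 6 libraries unless stated, and the main ones also without shControl replicate 1. The part of this library's state in the differences was not tested.

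**Figure D1:**
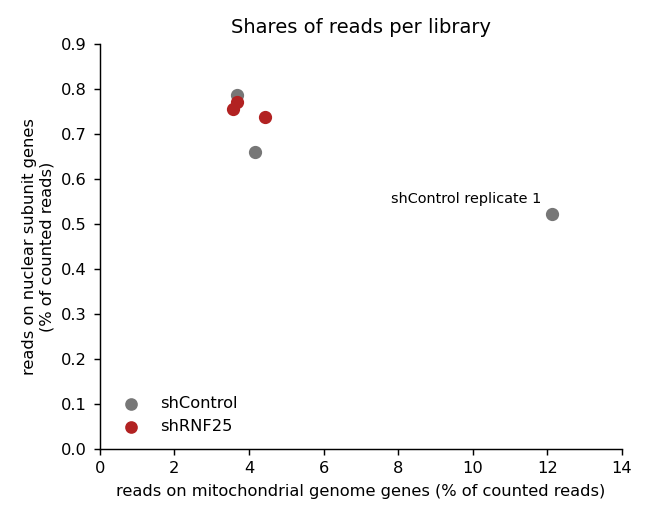
Share of counted reads on genes of the mitochondrial genome (x axis, %) against the share on the 110 nuclear subunit genes (y axis, %), with 1 point per library, grey for shControl and red for shRNF25. The library shControl replicate 1 lies at 12.1% and 0.522%, away from the other 5 libraries.

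Few nuclear subunit genes differed between the groups. At an adjusted p below 0.05, 1 was lower in shRNF25 (COX6B2) and 4 were higher (COX7B2, NDUFC2, ATP5F1E and ATP5MG), while 78 did not pass. This is 6.02% of the 83 genes, and 21.3% of all tested genes were called (10.8% lower and 10.5% higher). With the study's criteria, which add a fold change of at least 1.5, COX6B2, COX7B2 and NDUFC2 were called, or 3.61% against 15.7% of all tested genes (7.1% lower and 8.65% higher). The groups did not overlap for 16 subunit genes (6 lower and 10 higher), 19.3% against 42.5% of all tested genes. Among the 78 genes not called, log2 fold changes ran from -0.44 to 0.73. The 95% interval lay within -1 and 1 for 72 of them. It lay within a 1.5-fold change either way for 49 and reached past it for the other 29.

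Without shControl replicate 1, 10 subunit genes were called lower and 7 higher, or 20.5% of 83. In that comparison 33.9% of all tested genes were called, 17.9% lower and 16.0% higher. All 5 genes called with 6 libraries were called again without that library. The genes added as lower were NDUFA3, NDUFB7, NDUFB9, NDUFV1, NDUFS7 and NDUFS8 of complex I and ATP5F1B, ATP5F1D and ATP5MF of complex V, with log2 fold changes between -0.56 and -0.28. Those added as higher were NDUFA11 (0.44), NDUFA13 (0.49) and ATP5F1C (0.30), the gamma subunit of ATP synthase. The median log2 fold change of the 83 genes moved from 0.11 with 6 libraries to -0.01, beside medians near 0 over all tested genes (-0.01 with 6 libraries).

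By complex, the median log2 fold changes were small, at 0.05 for complex I, 0.12 for complex II, 0.13 for complex III, 0.14 for complex IV and 0.07 for complex V. The calls were 1 higher of 37 in complex I, 0 of 4 in complex II, 0 of 10 in complex III, 1 lower and 1 higher of 14 in complex IV, and 2 higher of 18 in complex V. The counts of 0 are from limma. At an unadjusted p below 0.05 complex II had 1 gene (SDHB) and complex III had 0, edgeR called 0 in both, and DESeq2 called SDHB and 0 in complex III. All 10 tested complex III genes, a copy (UQCRHL) and a pseudogene (UQCRFS1P1) included, had a log2 fold change above 0. Over all tested genes 8076 of 16554 did. When shControl replicate 1 was left out, UQCRC1, UQCRFS1, UQCR10, UQCRH and UQCRQ lay below 0 and the others stayed above it. The complex III gene CYC1 is outside the symbol families and is given further below. Without shControl replicate 1 the medians were 0.03, 0.02, -0.01, -0.09 and 0.05 in the same order. The sign thus turned for complexes III and IV. With each library left out in turn, the medians moved both ways. They ran from 0.03 to 0.23 for complex I, 0.02 to 0.21 for complex II and -0.01 to 0.31 for complex III. For complexes IV and V they ran from -0.09 to 0.28 and from 0.03 to 0.15.

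The medians per library show the same order of the controls in complexes I, III, IV and V, and another in complex II. Taking each gene's deviation from its shControl mean, the median complex III gene stood at -0.37, 0.25 and 0.08 on the log2 scale in shControl and at 0.15, 0.14 and 0.20 in shRNF25. For complex IV the medians were -0.33, 0.26 and 0.04 in shControl and 0.10, 0.06 and 0.22 in shRNF25. For complex I they were -0.22, 0.23 and -0.11 in shControl and 0.01, 0.06 and 0.10 in shRNF25. In these 3 complexes the knockdown libraries lay between the lowest and the highest control library. For complex II the medians were -0.01, 0.15 and -0.13 in shControl and 0.08, 0.08 and 0.17 in shRNF25. There shControl replicate 3 was the lowest control, and shRNF25 replicate 3 lay above every control.

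**Figure D2:**
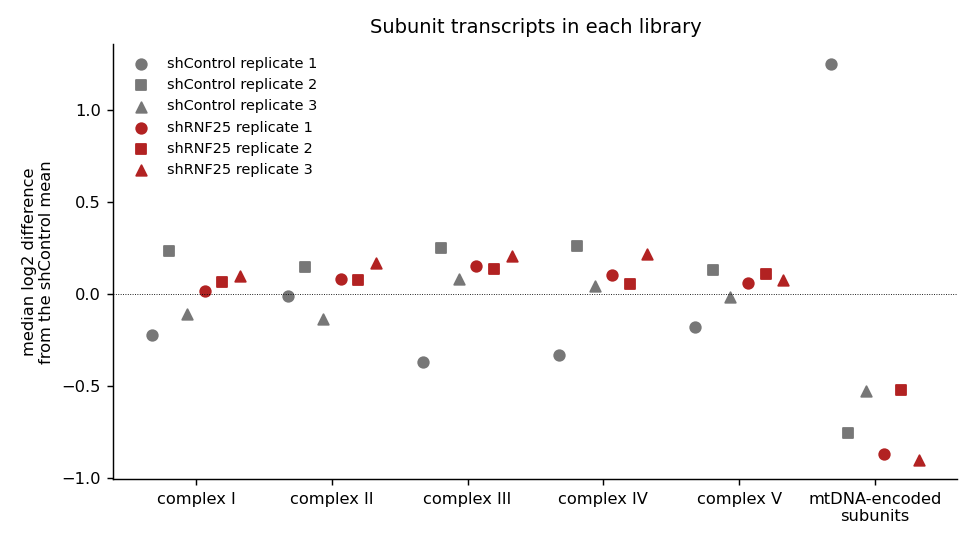
Median deviation of the tested genes of each complex from their shControl mean (y axis, log2 scale) in each of the 6 libraries, with 1 point per library. For complexes I, III, IV and V the shRNF25 points lie between shControl replicate 1 (lowest, -0.37 for complex III) and shControl replicate 2 (highest, 0.25 for complex III), and the mitochondrially encoded subunits lie the other way, at 1.25 in shControl replicate 1.

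**Figure D3:**
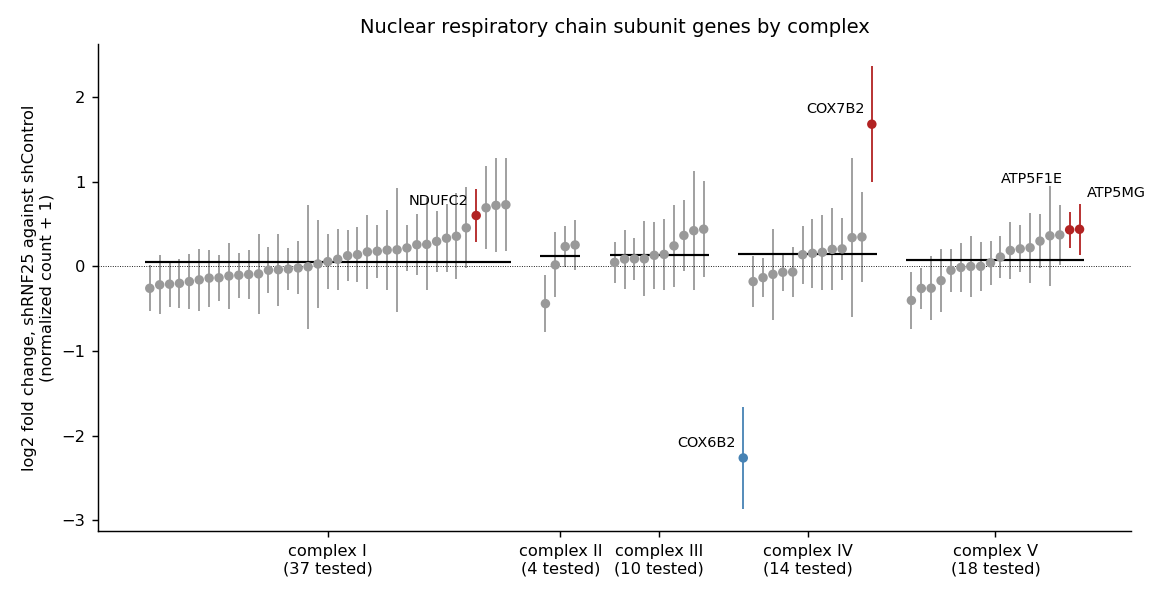
Log2 fold change of shRNF25 against shControl (y axis) for the 83 tested genes, ordered within each complex, with 95% intervals from limma as vertical lines and the median of each complex as a horizontal line. COX6B2 (-2.26, blue) and COX7B2 (1.68, red) lie apart from the other genes, and NDUFC2, ATP5F1E and ATP5MG are the other called genes.

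In complex IV, the changes were in 2 tissue-restricted isoforms that moved in opposite directions. COX6B2, the testis form of subunit VIb, had normalized counts of 68.5, 46.2 and 45.3 in shControl and 10.0, 12.0 and 8.58 in shRNF25. These came from 62, 45 and 42 reads and 11, 13 and 9 reads. Every knockdown library lay below every control library, and the mean fell from 53.3 ± 13.2 (SD, n = 3) to 10.2 ± 1.72 (SD, n = 3), or 19.1% of control. The log2 fold change was -2.26 (95% interval -2.87 to -1.66, adjusted p = 0.00063 by limma), and -2.07 without shControl replicate 1. COX6B2 is at chr19:55349306-55354814 on the minus strand (GRCh38, GENCODE 29), and 33.4% of the 50-base words of its transcript also occur in other transcripts, mostly of the overlapping locus AC020922.1, so part of its reads cannot be assigned with certainty.

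COX7B2, the tissue-restricted form of subunit VIIb, went up. Its normalized counts were 18.8, 20.5 and 43.2 in shControl and 80.2, 91.4 and 81.0 in shRNF25, from 17, 20 and 40 reads and 88, 99 and 85 reads. The groups did not overlap, although shControl replicate 3 lay above the other controls, and the mean rose from 27.5 ± 13.6 to 84.2 ± 6.26 (SD, n = 3 each), a 3.06-fold difference. On the log2 scale this was 1.68 (95% interval 0.99 to 2.36, adjusted p = 0.00496 by limma), and 1.46 without shControl replicate 1. The gene is at chr4:46734827-46909235 on the minus strand, and no 50-base word of its transcript occurred in another transcript.

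The widely expressed partners of both isoforms were not called. COX6B1 had normalized counts of 948, 2064 and 1639 in shControl and 1838, 1899.7 and 1888 in shRNF25, so that all 3 knockdown libraries lay within the control range (log2 fold change 0.35, 95% interval -0.19 to 0.88, adjusted p = 0.333). The log2 fold change was 0.03 without shControl replicate 1, its lowest library. COX7B had 1999.8, 2712 and 2139 in shControl and 2271, 2062 and 2150.4 in shRNF25, again overlapping (-0.07, 95% interval -0.36 to 0.22, adjusted p = 0.746), and -0.16 without that library. Per kilobase of the principal annotated transcript, COX6B2 stood at 32.1 in shControl and 6.13 in shRNF25, against 2325 and 2811 for COX6B1. The per-kilobase level of COX6B2 was 2.90%, 0.897% and 1.11% of that of COX6B1 in the 3 shControl libraries, with a mean of 1.00% without replicate 1, and 0.218% ± 0.0356 in shRNF25 (SD, n = 3). On the same scale COX7B2 stood at 50.7 and 155, against 924 and 875 for COX7B. Its level relative to COX7B was 4.28%, 3.45% and 9.20% in the 3 shControl libraries and 17.8% ± 2.13 in shRNF25 (SD, n = 3). The transcript taken for COX7B has 2471 bases, and a shorter one would lower the relative level of COX7B2 in both groups by the same factor. In both pairs the widely expressed form was the more abundant one in every library.

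The promoters of both pairs are shown because in each pair the restricted form was called and the widely expressed form was not, a difference between partners that was not itself tested. Each line gives 250 bases before and 50 bases after the annotated start, 5′ to 3′ on the gene's strand, from RefSeq on GRCh38.p14. Capitals mark a match to an NRF1, ETS or YY1 motif. The positions are chr19:35648073-35648372 (plus strand) for COX6B1, chr19:55354670-55354969 (minus) for COX6B2, chrX:77899218-77899517 (plus) for COX7B and chr4:46909196-46909495 (minus) for COX7B2.
COX6B1: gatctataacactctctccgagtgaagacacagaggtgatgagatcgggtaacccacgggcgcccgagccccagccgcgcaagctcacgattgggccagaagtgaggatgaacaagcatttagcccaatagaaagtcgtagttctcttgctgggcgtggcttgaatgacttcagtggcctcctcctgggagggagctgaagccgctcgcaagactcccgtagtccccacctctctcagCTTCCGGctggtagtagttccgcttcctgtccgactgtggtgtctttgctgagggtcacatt
COX6B2: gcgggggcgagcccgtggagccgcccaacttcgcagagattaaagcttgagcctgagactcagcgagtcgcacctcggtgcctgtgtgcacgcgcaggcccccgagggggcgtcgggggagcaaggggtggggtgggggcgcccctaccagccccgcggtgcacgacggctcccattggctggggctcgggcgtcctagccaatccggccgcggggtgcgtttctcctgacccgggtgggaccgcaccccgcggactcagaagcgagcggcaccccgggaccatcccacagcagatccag
COX7B: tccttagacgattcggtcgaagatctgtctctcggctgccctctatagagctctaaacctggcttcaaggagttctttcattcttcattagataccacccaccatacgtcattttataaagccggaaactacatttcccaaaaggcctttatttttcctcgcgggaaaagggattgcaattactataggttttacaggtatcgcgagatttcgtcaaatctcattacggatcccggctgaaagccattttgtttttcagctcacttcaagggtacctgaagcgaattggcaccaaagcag
COX7B2: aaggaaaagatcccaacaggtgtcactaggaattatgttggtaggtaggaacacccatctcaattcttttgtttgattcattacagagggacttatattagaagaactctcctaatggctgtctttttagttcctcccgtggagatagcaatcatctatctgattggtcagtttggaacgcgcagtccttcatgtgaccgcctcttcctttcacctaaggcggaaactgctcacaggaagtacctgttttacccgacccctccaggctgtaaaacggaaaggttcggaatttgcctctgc

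Of the 4, only the COX6B1 window held a match to the NRF1, ETS or YY1 motif, 1 ETS motif. The COX6B2 window was the richest in G and C (72.0%, with 31 CpG dinucleotides), followed by COX6B1 (56.7%, 16 CpG), COX7B2 (45.3%, 8 CpG) and COX7B (44.0%, 14 CpG).

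The remaining complex IV isoforms gave no call. COX4I1, which encodes subunit IV, had normalized counts of 4346, 7049 and 5771 in shControl and 6454, 6419 and 6535 in shRNF25, with overlap (0.20, adjusted p = 0.400, and 0.02 without shControl replicate 1). COX6A1 and COX7A2 likewise overlapped, with log2 fold changes of 0.15 and 0.14, and of -0.07 and -0.01 without that library. COX8A was the least certain gene of the set, with a standard error of 0.418. Its shControl values were 699, 2588 and 2293 and its shRNF25 values 1789, 1906 and 2458, so that the log2 fold change of 0.34 became -0.26 without shControl replicate 1. The muscle form COX7A1 and the testis form COX8C stayed below the filter, and COX4I2 and COX6A2 had no entry in the counts used. The 5 widely expressed isoforms had a median log2 fold change of 0.20, and of -0.01 without shControl replicate 1.

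In complex I, NDUFC2 was the only gene called by limma with 6 libraries. By edgeR 2 complex I genes were called and by DESeq2 4, all in the membrane arm, and 9 were called by limma without shControl replicate 1. This small subunit of the membrane arm had normalized counts of 235, 208 and 194 in shControl and 315, 295 and 358 in shRNF25, without overlap. The mean rose from 213 ± 20.9 to 323 ± 32.6 (SD, n = 3 each), 1.52-fold (0.60 ± 0.140 standard error on the log2 scale, adjusted p = 0.0158 by limma). NDUFC2 is at chr11:78068304-78080219 (minus strand) and shares 16.8% of its 50-base words with other transcripts, mostly the readthrough transcript NDUFC2-KCTD14. The call was lost when any of the 3 shRNF25 libraries was left out, with log2 fold changes of 0.52 to 0.66.

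Other membrane arm genes lay just beyond the threshold in limma with 6 libraries and were past it in some alternatives, in 7 of 16 for NDUFA13, 5 of 16 for NDUFA11 and 5 of 16 for NDUFA1. They are named after their values were seen. NDUFA13, a small subunit, had 57.5, 77.0 and 100.4 in shControl and 135, 112 and 126 in shRNF25 (0.69, adjusted p = 0.0503). NDUFA11 had 103, 203 and 173 and 267, 214 and 288 (0.73, adjusted p = 0.0643). NDUFA1, an X-linked subunit, had 376, 837 and 569.9 and 989.5, 833 and 972 (0.72, adjusted p = 0.0679), and only NDUFA1 overlapped between the groups. In all 3 genes shControl replicate 1 was the lowest library, and without it the log2 fold changes were 0.49, 0.44 and 0.43. NDUFA13 and NDUFA11 share 41.3% and 63.9% of their 50-base words with other transcripts, so their counts are uncertain.

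Genes of the catalytic core of complex I, which holds the flavin and the iron-sulfur clusters, were not called by limma with 6 libraries. NDUFV1, which binds NADH, stood at -0.11 on the log2 scale, NDUFS1 at -0.05, NDUFS7 at -0.09 and NDUFS8 at -0.04, with adjusted p-values from 0.672 to 0.90. NDUFS3 stood at 0.45 with overlapping groups (adjusted p = 0.161, and 0.27 without shControl replicate 1), and NDUFV2 is uncertain, with a mean of 24.8 in shControl and 82.0% of its words shared with other transcripts. Not one of these genes was called by edgeR or DESeq2 or had an unadjusted p below 0.05. Without shControl replicate 1, NDUFV1, NDUFS7 and NDUFS8 were called lower, at -0.31, -0.36 and -0.28. The 9 peripheral arm genes had a median of 0.19 and the 20 membrane arm genes of 0.10, and of 0.04 and 0.03 without that library. NDUFA4, named as a complex I subunit and now counted with complex IV, had 1521, 2344 and 1656 in shControl and 2145, 2177 and 2328 in shRNF25 (0.29, adjusted p = 0.218, and 0.17 without shControl replicate 1). Its hypoxia-responsive relative NDUFA4L2 was scarce, at means of 24.4 and 21.2.

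Complex II is small enough to give in full, and limma called 0 of its 4 genes with 6 libraries, while DESeq2 called SDHB. SDHB, the iron-sulfur subunit, had normalized counts of 2882, 2357 and 2037 in shControl and 1693, 2034 and 1603 in shRNF25. All knockdown libraries lay below all control libraries, by a margin of 2.13 normalized counts between the closest ones, and the difference of -0.44 ± 0.149 (standard error) on the log2 scale had an adjusted p of 0.0650 by limma and passed the threshold in 2 of 16 alternatives. SDHA, the flavoprotein, had 276, 429 and 392 in shControl and 345, 378 and 368 in shRNF25 (0.02, and -0.17 without shControl replicate 1), with 22.3% of its words shared with other transcripts. The membrane anchors lay slightly above control. SDHC had 2482, 2559.9 and 2148 in shControl and 2786, 2688 and 2954 in shRNF25 (0.23, adjusted p = 0.160, no overlap), and SDHD had 689.8, 837 and 673 and 914, 772 and 930.3 (0.25, adjusted p = 0.206, overlap). SDHD shares 27.7% of its words with other transcripts.

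In complex III, the core subunits UQCRC1, UQCRC2 and the Rieske iron-sulfur protein UQCRFS1 had log2 fold changes of 0.09, 0.05 and 0.08, and of -0.16, 0.02 and -0.05 without shControl replicate 1. The 5 supernumerary subunits had a median of 0.14, and of -0.04 without that library. UQCR11 was the only tested gene of complex III whose groups did not overlap (0.36, adjusted p = 0.195, and 0.18 without that library, named after its values were seen). UQCRHL and UQCRFS1P1, a copy and a pseudogene of subunit genes, passed the filter at low counts and were not called.

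In complex V, 2 small subunits rose. ATP5F1E, the epsilon subunit of the F1 head, had normalized counts of 1908, 1913 and 1878 in shControl, the tightest control values of the called genes, and 2694, 2539 and 2452 in shRNF25. The mean rose 1.35-fold, from 1899 ± 18.8 to 2562 ± 123 (SD, n = 3 each), or 0.43 ± 0.0959 (standard error) on the log2 scale (adjusted p = 0.0130 by limma). ATP5F1E is at chr20:59025467-59032382 (minus strand) and TUBB1 lies antisense to it, and whether the reads were counted by strand is not given in the sources used here. ATP5MG, the g subunit of the membrane part, had 263, 312 and 315 in shControl and 424, 360.2 and 421 in shRNF25, also 1.35-fold and without overlap (0.44, adjusted p = 0.0470). It is at chr11:118401154-118431496 (plus strand), with 16.8% of its words shared, mostly with AP001267.5. Neither reached a 1.5-fold change, ATP5F1E was not called when any shRNF25 library was left out, and ATP5MG was called in 9 of 16 alternatives.

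With 6 libraries, neither catalytic F1 subunit was called by limma. ATP5F1A, the alpha subunit, had a log2 fold change of 0.37 (adjusted p = 0.122, no overlap), and ATP5F1B, the beta subunit, of -0.17 (adjusted p = 0.495). These stood, without shControl replicate 1, at 0.22 and -0.35, and ATP5F1B was called lower. ATP5F1D, the delta subunit, had 1479, 1986 and 2122 in shControl and 1267, 1469 and 1446 in shRNF25, all below control (-0.40, adjusted p = 0.0831), and -0.56 without shControl replicate 1, when it was called. The c ring genes ATP5MC1, ATP5MC2 and ATP5MC3, which encode the same mature protein, stood at 0.04, 0.00 and 0.00, and at -0.05, -0.10 and -0.15 without that library. Each of the 3 overlapped between the groups.

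**Figure D4:**
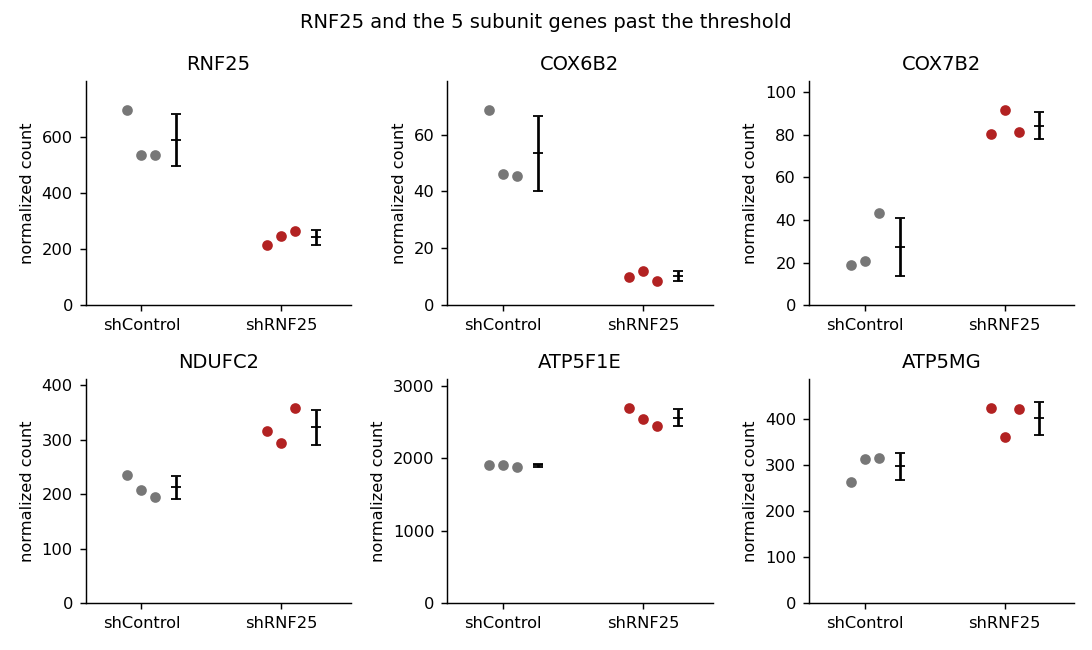
Normalized counts (y axes, linear and starting at 0) of RNF25 and the called genes COX6B2, COX7B2, NDUFC2, ATP5F1E and ATP5MG in each library, with grey points for shControl, red points for shRNF25 and bars for the group mean ± SD (n = 3). The groups do not overlap in any panel, and of the 5 subunit genes only COX6B2 is lower in shRNF25 (10.2 against 53.3).

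All 5 called genes gave a two-sided exact permutation p of 0.1, the smallest that 3 against 3 libraries can give. Across the settings in which they could be tested, COX6B2 was called in 15 of 15 and COX7B2 in 16 of 16, and NDUFC2 and ATP5F1E in 13 of 16 each. With the filter raised to 50, the control counts of COX7B2 lay below it, so COX7B2 was tested there only through its shRNF25 values. That setting is therefore no separate support for its call.

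Expression levels spanned a wide range. Per kilobase of transcript in shControl, the most abundant genes were ATP5F1B (9696), COX4I1 (8082), COX7C (5798), NDUFS5 (4699.9) and UQCRH (4181). On this scale the scarcest tested genes were NDUFA9 (14.5), UQCRHL (19.8), NDUFA7 (21.2), NDUFV2 (26.6) and COX6B2 (32.1). The place of NDUFA9 rests on the transcript taken, which has 8363 bases, and a shorter one would raise its level. Its mean normalized count in shControl was 121, and 14.5% of its words are shared with other transcripts. Low levels of NDUFA7 and NDUFV2 go with 73.7% and 82.0% of words shared with other transcripts. In all, 22 of the 83 tested genes shared more than 10% of their words. Among them were NDUFB8 (72.7%), ATP5PO (69.0%), COX6A1 (44.0%), ATP5MF (39.1%), UQCRH (29.4%), COX8A (27.7%) and UQCR11 (26.4%), whose counts are therefore uncertain. The share of words is not the share of reads affected. Across the 83 genes the log2 fold change had a Spearman correlation of -0.06 with transcript length and -0.08 with GC content, given as a description.

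The promoters of the subunit genes share sequence features that the choice of genes did not use. Promoter windows were found for 69 of the 83 protein-coding genes. The NRF1 motif occurred in 17 of them (24.6%, against 6.28% of 27305 promoters of the same length), the ETS motif CCGGAAG bound by GABP in 20 (29% against 10.7%) and the YY1 motif in 4 (5.80% against 0.916%), on either strand. At least 1 of the 3 was present in 35 (50.7% against 16.3%). The motif TCAAGGTCA of estrogen-related receptors was found in 1 (1.45% against 0.359%), and CCAAT in 24 (34.8% against 35.7%). The windows were also richer in CpG, with a median of 23 against 14, and the NRF1, ETS and YY1 motifs each hold CpG. The comparison promoters were not limited to protein-coding genes, so the sets may also differ in gene type. The part of either difference in these shares was not tested. Among the called genes with a window, ATP5MG had 1 ETS match, and COX6B2, COX7B2 and ATP5F1E had no NRF1, ETS or YY1 match. CCAAT occurred 2 times in the COX6B2 window, 1 time in that of COX7B2 and 4 times in that of ATP5F1E.

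Genes around the respiratory chain were counted in lists, beside 10.8% lower and 10.5% higher over all tested genes by limma, and 17.9% and 16.0% without shControl replicate 1. Among assembly factors, 1 of 17 for complex I was lower (NDUFAF3, 902 to 519.6, log2 fold change -0.77, adjusted p = 0.0115) and 1 of 4 for complex II was lower (SDHAF3, -0.58, adjusted p = 0.0453). For complex III, 1 of 6 was higher (UQCC1, 0.49, adjusted p = 0.0116), for complex IV 2 of 21 were higher (COA7, 0.49, and COA5, 0.44), and for complex V 0 of 4 were called by limma, edgeR and DESeq2, with 0 at an unadjusted p below 0.05. The medians of these lists lay between -0.12 and 0.13. Without shControl replicate 1, 3 of 17 complex I factors (NDUFAF3, ACAD9 and COA1) and 2 of 4 complex II factors (SDHAF3 and SDHAF4) were lower, and 3 of 21 complex IV factors were higher (COX16, COA5 and COA7).

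Several hypoxia-responsive genes of mitochondrial function and several tricarboxylic acid cycle enzymes were lower in shRNF25. Of 6 tested hypoxia-responsive genes 3 were lower, with a median of -0.79. BNIP3, a mitophagy receptor, fell from 2493 to 804 (-1.61, adjusted p = 0.000176), and its relative BNIP3L stood at -1.41 (adjusted p = 0.000112). With shControl replicate 1 left out, 4 of 6 were lower, LONP1 being the gene added. Of 14 cycle enzymes 5 were lower and 0 higher, with a median of -0.10. The mitochondrial isocitrate dehydrogenase IDH2 fell from 2659.5 to 1449 (-0.87, adjusted p = 0.00103), and DLST, a subunit of the 2-oxoglutarate dehydrogenase complex, stood at -0.47 (adjusted p = 0.0111). Of 11 tested regulators of mitochondrial biogenesis 1 was lower, GABPB1 (376 to 263, -0.51, adjusted p = 0.0328), which encodes a subunit of the factor GABP. When that control library was left out, 3 of 11 were lower, with PPARGC1B (-0.32) and POLRMT (-0.48) added. Cytochrome c itself (CYCS) stood at -0.38 (adjusted p = 0.0502) and cytochrome c1 (CYC1) at -0.28, neither called by limma with 6 libraries, while CYCS was called lower without shControl replicate 1 (-0.35).

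Other parts of the mitochondrial and translation machinery were set beside the subunits. The 13 mitochondrially encoded subunits had a median log2 fold change of -0.71, with 0 calls by limma, edgeR and DESeq2 and 1 gene at an unadjusted p below 0.05. It was -0.05 without shControl replicate 1. Of 77 mitochondrial ribosomal protein genes 6 were lower and 1 higher (median -0.06), including MRPS24 (-1.09) and MRPS18A (-0.63). Of 78 cytosolic ribosomal protein genes 7 were lower and 1 higher (median -0.19), including RPS10 (-0.91) and RPS26 (-0.76). Without shControl replicate 1, 13 mitochondrial ribosomal protein genes were lower and 2 higher, and 31 cytosolic ones were lower and 2 higher. None of these differences between lists was tested.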

How the data were processed

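Total RNA was sequenced after depletion of ribosomal RNA from SW839 cells with the pLKO vector (3 libraries) or an RNF25 hairpin (3 libraries). Per the study's methods a stranded kit was used and DESeq2 was run. The submitters' processing notes name fastp, HISAT2, HTSeq and GRCh38, and the annotation and the strand setting are not given in the sources used here. The authors deposited normalized counts per gene symbol, a signal that is not whole. Every library's values were whole multiples of 1 step (100% within a tolerance of 0.01 reads), which gave back the reads for the count tests and the depth of 18647460 to 19943154 reads.

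Values were transformed as log2(normalized count + 1), and genes with at least 10 in at least 3 libraries (16554) were compared with limma 3.58.1 (lmFit, eBayes with trend) in R 4.3.3, with group as the only term and Benjamini-Hochberg adjustment over all tested genes. Fold changes on this scale understate those of low genes. Single genes were also tested two-sided by exact permutation of the 6 libraries. The steps were run on simulated counts with 200 changed genes and the same dispersion in every library. The simulation had no wider spread in the controls and no deviating library, so it does not check the steps under those conditions.

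As alternatives, each library was left out in turn, the recovered reads were tested with edgeR 4.0.16 and DESeq2 1.42.0, the pseudocount was set to 5 or 0.5, the filter was dropped or raised to 50, values were quantile normalized or rescaled on the median ratio, libraries were weighted by group, and replicate numbers entered as a block. The members and gene lists were chosen with earlier results of these data known. The genes named are RNF25, the called genes with the largest changes in each complex, the catalytic core subunits, the SDH genes, the isoform pairs, the c ring, and the genes with the largest called changes of each list, with other names marked in the text, given as examples of level, or given because their call changed without shControl replicate 1.

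Positions, principal transcripts and shared 50-base words come from GENCODE 29 (GRCh38) by symbol. The words were compared with annotated transcripts only, without the genome, so that copies outside annotated transcripts are not counted. Promoters come from RefSeq (GRCh38.p14). The values of 1 gene are not reported here.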

Additional observations from a re-analysis of the deposited data

How the results depend on the processing

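The count of subunit genes called lower was 1 in the reported analysis. It was 0 with a filter of at least 50 in at least 3 libraries, which removes COX6B2 from the test, and 2 by DESeq2, and it ranged from 1 to 10 when single libraries were left out (10 without shControl replicate 1, 2 without shControl replicate 3). The count called higher was 4. It was 7 with quantile normalization, 7 by DESeq2 and 2 with a fold change of at least 1.5, and it ranged from 1 to 8 with single libraries left out (7 without shControl replicate 1, 8 without shControl replicate 2 and 1 without each of the shRNF25 libraries, when COX7B2 remained). The count past the study's criteria was 3, and 2 to 7 across the alternatives. The cause of these shifts was not tested. RNF25 stayed lower under all 16 alternatives. The other scalings moved the median of all genes by at most 0.065 on the log2 scale.

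The replicate number gave no pairing, since the deviations of same-numbered libraries correlated at -0.0638, -0.0874 and 0.0471 and shControl replicate 1 correlated best with shRNF25 replicate 2. With the replicate block, 1 gene was called lower and 5 higher.

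Of the single genes checked, 18 changed the sign of the log2 fold change in at least 1 alternative, and 0 did so with an adjusted p below 0.05. With quantile normalization the values were 0.0391 for COX7B, 0.0606 for NDUFV1, 0.0719 for NDUFS1, 0.0578 for NDUFS8, 0.14 for ATP5F1B, 0.092 for ATP5MC2 and 0.158 for ATP5MC3. With rescaling on the median ratio they were 0.0192 for NDUFS1, 0.0252 for NDUFS8, 0.0568 for NDUFV2, 0.0645 for ATP5MC2 and 0.0637 for ATP5MC3. By edgeR they were 0.0233 for NDUFV2, 0.0274 for ATP5MC2 and 0.00166 for ATP5MC3, and by DESeq2 0.00268 for NDUFV2 and 0.00846 for ATP5MC2. With single libraries left out, the log2 fold changes ran over COX6A1 -0.071 to 0.28, COX7A2 -0.0078 to 0.27, COX8A -0.26 to 0.68, COX7B -0.16 to 0.062, SDHA -0.17 to 0.14, NDUFV1 -0.31 to 0.059, NDUFS1 -0.15 to 0.055, NDUFS7 -0.36 to 0.069, NDUFS8 -0.28 to 0.11, NDUFV2 -0.22 to 0.24, UQCRC1 -0.16 to 0.27, UQCRC2 -0.0022 to 0.12, UQCRFS1 -0.053 to 0.24, ATP5MC1 -0.053 to 0.12, ATP5MC2 -0.10 to 0.080, ATP5MC3 -0.15 to 0.19 and NDUFA4L2 -0.61 to 0.22.

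Genes with few reads, such as COX6B2 in shRNF25, carry counting error in addition to the spread between libraries, and 3 libraries a group leave 29 of the 78 uncalled genes open to a 1.5-fold change within their 95% intervals.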
